A study of Mus musculus with 9 samples.

Results

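Activated CD4+ T cells that lack the bone morphogenetic protein (BMP) receptor BMPR1a were compared with naive wild-type (WT) CD4+ T cells, gene by gene, in 3 libraries of each. The comparison uses 6 of the 9 libraries of the series, and the other 3, from activated WT cells, share in the estimate of spread and are given for reference. A gene was taken when its mean over the 6 libraries reached 0.5 FPKM (fragments scaled to transcript length and to mapped fragments), which 15092 of 25759 gene rows did. The activated knockout cells carry the genotype BMPR1a/CD4cre, in which a Cre recombinase driven by the Cd4 promoter deletes the receptor gene conditionally in T cells. Which exons are removed is not stated in the labels, and this promoter is active from the thymus on and so also in cells that become CD8 T cells. Lymph node and spleen cells of these mice were cultured for 3 days with concanavalin A (ConA, a lectin that cross-links T cell receptors) at 2 ug/ml and lipopolysaccharide (LPS) at 10 ng/ml, and were then sorted as CD4+CD44+CD62L-Foxp3GFP-. Activated WT cells had the same culture and sort. Naive WT cells were sorted straight from lymph node and spleen as CD4+CD44-CD62+Foxp3GFP- and received no treatment. All mice are labelled C57BL/6, were 8 to 12 weeks old and carried a Foxp3GFP reporter transgene. Genotype, stimulation, culture and sort gate all differ between the knockout and the naive group, and there is no naive knockout group, so their parts in a difference cannot be told apart. The labels do not say that replicates came from separate mice or cultures, and p-values then measure only the spread between these libraries.

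A naive CD4+ T cell is a small resting cell kept alive by interleukin-7 and self-peptide, with quiescence factors such as KLF2 and FOXO1 and the homing receptor CCR7. Stimulation through the T cell receptor makes it grow, switch to aerobic glycolysis, copy its genome, divide, and begin to express the transcription factors, cytokines and receptors of effector lineages. BMPR1a is a type I receptor that, with a type II partner, phosphorylates SMAD1, SMAD5 and SMAD9 after binding BMPs, next to the related TGF-beta pathway through SMAD2 and SMAD3.

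The targeted gene and the sort markers were read first. Bmpr1a (chr14:34410734-34503341, minus strand, GRCm38) stood at 0.460, 0.311 and 0.336 FPKM in naive WT libraries 1 to 3, at 0.957, 1.93 and 1.199 in the knockout libraries, and at 2.16, 2.92 and 1.40 in activated WT. The knockout libraries thus lay above the naive ones and overlapped with activated WT. Against naive cells Bmpr1a was higher by 0.77 on the log2(FPKM + 1) scale (SE 0.21, limma adjusted p = 0.0135), and against activated WT it differed by -0.41 (limma adjusted p = 0.257). A gene-level value includes reads from exons outside the deleted part, so this check does not settle the genotype label. Cd44, a marker on which the gates differ beside CD62L, went from 9.42, 13.9 and 10.97 FPKM in naive to 33.6, 30.0 and 28.2 in knockout libraries (log2 fold change 1.36, SE 0.14, limma adjusted p = 0.000128).

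Cd4 itself was read at 331, 319 and 285 FPKM in naive cells and 353, 280 and 287 in knockout libraries (log2 fold change -0.03, limma adjusted p = 0.824). The gene list of T cell identity summed to 2466 to 2690 FPKM in naive and 2571 to 2876 FPKM in knockout libraries, with 3 of 10 members called higher and 2 lower. Cd8a, a gene of CD8 T cells, was read at 2.49, 0.0965 and 11.1 FPKM in naive samples, and at 74.9, 105 and 107 FPKM after activation in knockout libraries (log2 fold change 4.73, SE 0.74, limma adjusted p = 0.000949). In these bulk libraries, fewer cells of a type and less RNA per cell cannot be told apart.

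Read depth is unknown for this table. The number of genes at 1 FPKM or more ran from 12922 to 13395 over the libraries. On all 9 libraries the first principal component held 42.6% of the variance and set naive libraries (-81.7 to -74.9) apart from knockout libraries (38.0 to 51.8). Across tested genes the Pearson correlation of log2 values was 0.925 to 0.934 among knockout libraries, 0.910 to 0.927 among naive libraries and 0.834 to 0.858 between the groups, a description across genes, which are not independent. Knockout libraries 2 and 3 stood apart from library 1 at a stretch of chromosome 17, the major histocompatibility complex (MHC), and at some other genes. These values are given further down. Counts against naive cells that change by more than 1.5 times when libraries 2 and 3 are both left out are given with the value from library 1 alone.

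Most tested genes differed. limma called 8668 of 15092 genes at an adjusted p under 0.05, which is 57.4%, with 4809 higher (31.9%) and 3859 lower (25.6%) in knockout cells. Of these, 1656 of the higher and 777 of the lower genes differed at least 2-fold, and 79 and 23 at least 16-fold. The 3 knockout libraries and the 3 naive libraries did not overlap at 9682 genes (64.2%). With knockout library 1 alone, 5216 genes were called, 3183 higher and 2033 lower. The median log2 fold change of all tested genes was 0.04 and became -0.09 with quantile normalization, a shift against which small changes have to be read. The share of calls that were higher was 55.5% as deposited and 43.7% after quantile normalization. Any list below is to be read against these shares of 31.9% higher and 25.6% lower and this median.

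**Figure D1:**
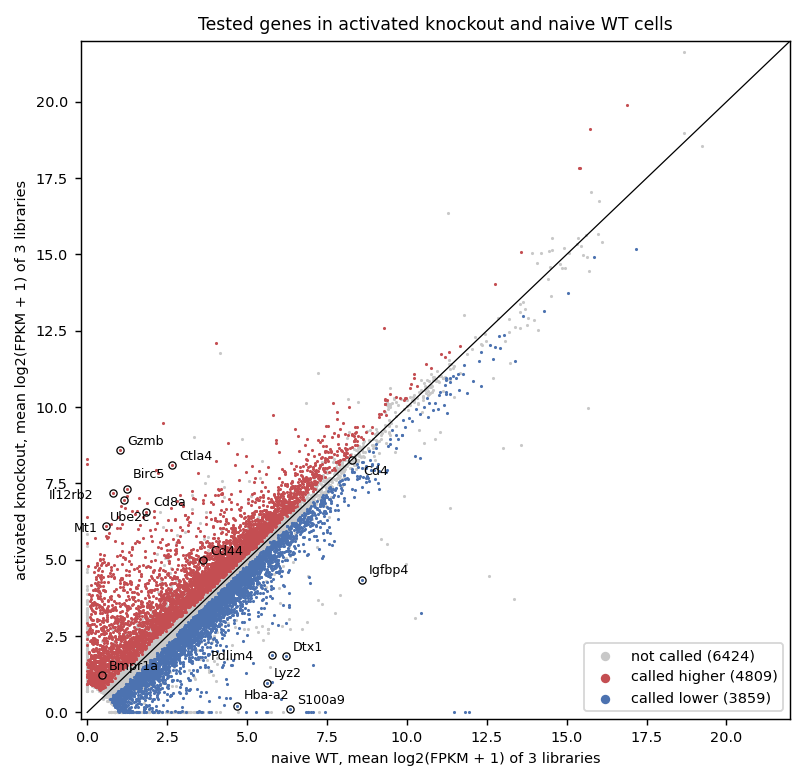
Mean log2(FPKM + 1) of each of 15092 tested genes in naive WT (x axis) and in activated knockout cells (y axis), 3 libraries each, with genes called by limma in red (4809 higher) and blue (3859 lower) and named genes ringed. Gzmb, Il12rb2 and Mt1 sit far above the diagonal line of equal values, S100a9 and Dtx1 far below, and Cd4 on it.

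Gzmb, the gene of granzyme B, a protease of killer cell granules, had the largest rise among genes of 5 FPKM or more that are not small RNAs, pseudogenes, antigen receptor segments or unnamed models. It stood at 0.760, 1.47 and 1.01 FPKM in the naive and 205, 1054 and 262 in knockout libraries 1 to 3 (log2 fold change 7.55, SE 0.59, limma adjusted p = 3.26e-05). Knockout library 2 was far above libraries 1 and 3, which lay within the range of the activated WT libraries at 340, 208 and 149 FPKM. Il12rb2, the inducible chain of the interleukin-12 receptor, went from 0.686, 0.908 and 0.713 to 109, 205 and 131 FPKM (log2 fold change 6.35, limma adjusted p = 1.3e-06). The other 10 of the 12 largest rises were the mitotic survivin gene Birc5 (6.08), the PCNA-binding factor gene Pclaf (5.85), Ube2c (5.83), the protease inhibitor gene Ctla2a (5.79), Cdk1 (5.71), Top2a (5.64), the transcription factor gene Bhlhe40 (5.52), the metallothionein gene Mt1 (5.51), Tg (5.47) and the co-inhibitory receptor gene Ctla4 (5.44), all log2 fold changes. Tg encodes thyroglobulin, the thyroid hormone precursor, and was read at 0.207, 0.184 and 0.178 FPKM in naive and 33.7, 66.3 and 61.7 in knockout libraries, with 45.2, 43.6 and 27.1 in activated WT.

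By the same rule, the 12 largest falls held Dtx1 and Igfbp4 from the list of naive and quiescent T cells, 4 other genes and 6 genes of other blood cells. Dtx1, a Notch pathway regulator, went from 64.4, 79.5 and 76.2 to 2.64, 2.67 and 2.48 FPKM (log2 fold change -4.36, SE 0.13, limma adjusted p = 9.93e-07). Igfbp4, an insulin-like growth factor binding protein, went from 439, 330 and 397 to 17.9, 25.9 and 15.6 FPKM (log2 fold change -4.25). Pdlim4 (-3.90), the transporter gene Slc16a5 (-3.58), Eps8l1 (-3.62) and the stress-inducible chaperone gene Hspa1b (-3.98) fell as well. Hspa1b stood at 9.31, 52.6 and 18.6 FPKM in naive libraries, highest in library 2. The genes of other blood cells were the neutrophil alarmin genes S100a9 (-6.23) and S100a8 (-5.65), the myeloid lysozyme gene Lyz2 (-4.65) and the globin genes Hba-a2 (-4.46), Hba-a1 (-4.02) and Hbb-bs (-3.88). S100a9 was at 28.7, 318 and 55.3 FPKM in naive libraries, highest in library 2, and at 0.0739, 0 and 0.168 in knockout libraries. The naive gate takes cells from tissue and the activated gate cells from culture, and the part of such carried-over RNA in these falls was not tested.

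**Figure D2:**
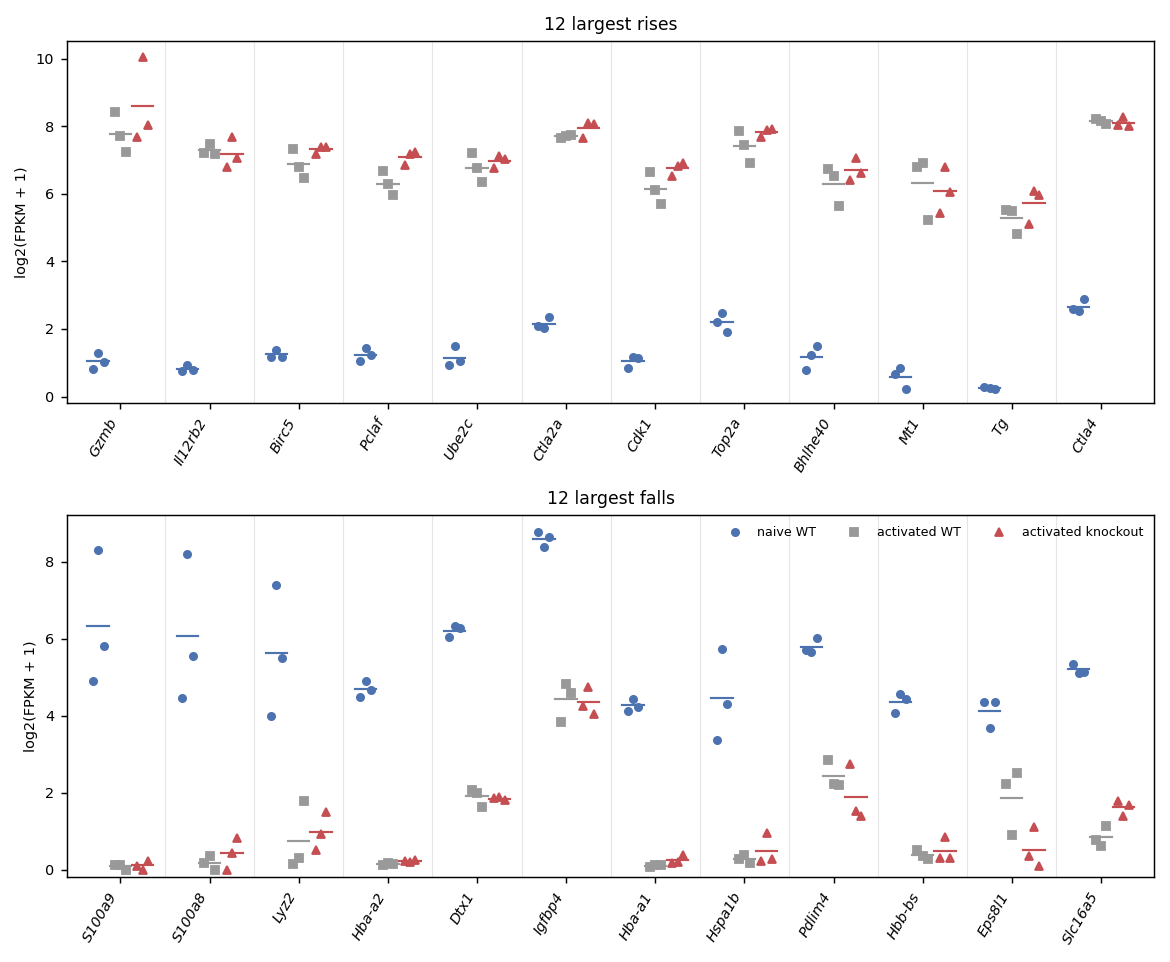
Per-library log2(FPKM + 1) of the 12 genes with the largest rise (top) and the 12 with the largest fall (bottom) in knockout against naive cells. Each point is 1 library, short lines are group means, and activated WT libraries are shown in grey. The genes were chosen for non-overlapping knockout and naive libraries. Gzmb has 1 knockout library far above the others, and S100a9 spreads widely among naive libraries.

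Genes of cell division rose together. All 30 tested genes of the mitosis list were called higher, with log2 fold changes from 2.57 to 6.08 and a median of 4.60, while the median of activated WT against the same naive libraries was 4.10. Ube2c, which supplies ubiquitin for the destruction of cyclin B, stood at 0.892, 1.80 and 1.05 FPKM in naive cells and 107, 139 and 131 in knockout libraries (log2 fold change 5.83, SE 0.23, limma adjusted p = 2.65e-06). Cdk1, the mitotic kinase, went from 0.809, 1.24 and 1.19 to 91.2, 111 and 120 FPKM, and Top2a, the topoisomerase that untangles sister chromatids, from 3.61, 4.57 and 2.79 to 204, 238 and 244. The knockout libraries were close to each other in all 3 genes. Between knockout and activated WT the median difference of the 30 genes was 0.43, and none was called.

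Promoters of mitotic genes are known for 2 sequence elements, the cell cycle homology region (CHR, TTTGAA) and the CCAAT box, which together recruit the DREAM and MuvB complexes and NF-Y. The 140 bases before the start of Ube2c (chr2:164769789-164769928, plus strand), Cdk1 (chr10:69352913-69353052, minus strand) and Top2a (chr11:99024190-99024329, minus strand) are shown as the mitosis genes among the 12 largest rises whose promoters hold both elements. Birc5, the mitotic gene with the largest rise, was not among the genes found with either element in a promoter of 300 bases. The windows shown are from RefSeq on GRCm38.p6, 5′ to 3′ along the gene, and capitals mark each CHR and CCAAT match on either strand.
Ube2c: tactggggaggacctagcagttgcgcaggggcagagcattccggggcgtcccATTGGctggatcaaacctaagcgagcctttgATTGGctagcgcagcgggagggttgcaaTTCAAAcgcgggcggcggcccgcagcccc
Cdk1: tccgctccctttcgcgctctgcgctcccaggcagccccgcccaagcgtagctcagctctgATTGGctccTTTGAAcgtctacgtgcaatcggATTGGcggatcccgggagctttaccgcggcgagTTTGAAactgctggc
Top2a: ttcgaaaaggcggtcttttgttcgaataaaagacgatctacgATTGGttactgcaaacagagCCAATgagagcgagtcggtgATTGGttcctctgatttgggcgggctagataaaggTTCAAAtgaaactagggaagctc
Each window held at least 1 CHR near the start, at bases -29 to -24 in Ube2c, -15 to -10 in Cdk1 and -23 to -18 in Top2a, counted from the start site, with CCAAT boxes upstream of it. Promoters of 300 bases were found by symbol for 26 of the 30 mitosis genes. Of these, 20 held a CHR (76.9%) and 17 held both a CHR and a CCAAT box (65.4%), against 14.6% and 6.19% of the 9208 tested genes with such a promoter. Of all 32851 promoters in that table, 17.9% and 6.95% did so. A match of letters is a description and not a site of binding.

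The DNA replication list, 28 tested genes, was called higher throughout (median log2 fold change 2.13, range 0.68 to 5.37, against a median of 1.58 in activated WT). It was led by Rrm2, the regulated subunit of ribonucleotide reductase, at 1.89, 2.77 and 1.75 FPKM in naive and 108, 139 and 139 in knockout libraries (log2 fold change 5.37), by Uhrf1, which guides maintenance DNA methylation (4.49), and by Tk1, thymidine kinase (3.99). The E2F sites TTCCCGC and TTGGCGC, searched on both strands, stood in 16 of the 25 promoters found for the list (64%) and in 14% of those of tested genes. Fen1, the flap endonuclease, was also above activated WT, at 16.1, 17.02 and 20.1 FPKM against 9.22, 8.24 and 8.39 (log2 difference 0.96, limma adjusted p = 0.0155), as was the thymidylate synthase gene Tyms (0.90).

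Genes of the step into the cycle moved less. Of 18 tested G1 cyclins, their kinases, E2F factors and Myc family genes, 14 rose and 1 fell (median 1.24). E2f8 (3.75), cyclin E2 gene Ccne2 (3.06) and E2f1 (2.71) rose most. Ccnd2, cyclin D2, read 95.3, 119 and 71.7 FPKM in naive and 61.0, 69.5 and 66.2 in knockout libraries (log2 fold change -0.51, limma adjusted p = 0.0307), a call that was lost in 7 of 18 alternatives. Myc was at 47.4, 45.0 and 50.1 FPKM in naive cells and 57.0, 92.1 and 66.7 in knockout libraries (log2 fold change 0.56, limma adjusted p = 0.0258). Of 7 tested CDK inhibitor and pocket protein genes, 6 rose, with Cdkn1a ahead (4.37), and Cdkn1b did not pass.

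Sugar metabolism rose as a block. All 18 glycolysis genes were called higher (median 1.80, range 0.50 to 3.95), and the median of activated WT was 1.94. The lactate exporter gene Slc16a3 stood at 0.918, 3.11 and 1.33 FPKM in naive cells and 38.7, 64.9 and 25.2 in knockout libraries (log2 fold change 3.95). Tpi1, triose phosphate isomerase, went from 24.9, 20.9 and 28.5 to 308, 514 and 267 FPKM (3.77), and Pgk1 from 56.7, 56.0 and 64.1 to 472, 621 and 380 (3.01). In each of these genes knockout library 2 was highest and library 3 lowest. The letters ACGTG, the core of the hypoxia response element, were in 12 of 17 promoters found for the list (70.6%) and in 29.6% of those of tested genes, on either strand. Hypoxia response genes proper rose in 8 of 16 cases and fell in none (median 1.14), and in 5 without knockout library 2 and 4 with library 1 alone. Hif1a, the oxygen-regulated factor, was even across libraries, from 24.6, 27.2 and 25.1 to 187, 213 and 189 FPKM (2.89). Its targets were uneven: Egln3 read 15.3, 25.8 and 7.71 FPKM and Vegfa 6.98, 15.0 and 2.92 FPKM in knockout libraries, with naive libraries under 0.9 in both. Activated WT libraries were uneven too, at 39.7, 40.03 and 10.2 FPKM for Egln3.

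In mitochondria, nuclear and mitochondrial genomes went opposite ways. Of 23 nuclear genes of oxidative phosphorylation, 21 were called higher (median 0.69, against 0.37 in activated WT), led by Cox5a, a subunit of cytochrome c oxidase, from 57.2, 59.8 and 66.3 to 140, 186 and 178 FPKM (log2 fold change 1.44, SE 0.12, limma adjusted p = 4.44e-05). Of 13 genes encoded in the mitochondrial genome, 12 were called lower (median -0.67, also -0.67 in activated WT), or 6 with quantile normalization. The cytochrome b gene mt-Cytb went from 3271, 2894 and 3392 to 1343, 1532 and 1689 FPKM (-1.07). Tricarboxylic acid cycle and glutamine genes rose in 13 of 20 cases and fell in 1 (median 0.56), with the transaminase genes Got2 (1.86) and Got1 (1.03) and glutamate dehydrogenase gene Glud1 (0.85) ahead.

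Anabolic pathways followed. All 21 cholesterol synthesis genes were called higher (median 1.37, against 0.96 in activated WT). Cyp51, lanosterol demethylase, was read at 10.8, 11.7 and 10.3 FPKM in naive, 48.2, 47.6 and 42.7 in knockout and 34.7, 28.3 and 24.4 in activated WT libraries (log2 fold change 1.98 against naive). Fdps (1.93) and Hmgcs1 (1.90) were next. Nucleotide synthesis genes rose in 14 of 20 cases and fell in 2 (median 0.49, against -0.07 in activated WT), or rose in 7 with knockout library 1 alone. They were led by Dctpp1 (1.46), Paics (1.17) and the inosine monophosphate dehydrogenase gene Impdh2 (1.15), while Impdh1, its other isoform, fell from 57.4, 53.8 and 56.3 to 31.7, 39.1 and 29.6 FPKM (-0.73). Of 15 serine, one-carbon and amino acid uptake genes, 10 rose and Slc38a2 fell (-0.43). Asns, asparagine synthetase, went from 0.233, 0.182 and 0.141 to 5.96, 14.5 and 7.37 FPKM (3.03), and Phgdh, the entry enzyme of serine synthesis, from 30.6, 32.2 and 34.3 to 66.0, 88.7 and 90.4 (1.30).

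Lists of protein synthesis genes differed. Of 20 cytoplasmic tRNA synthetase genes 12 rose and none fell (median 0.34, against -0.02 in activated WT), with Wars, Gars and Aars ahead at 1.80, 1.14 and 1.14. Of 20 ribosome biogenesis genes 5 rose and 6 fell (median -0.06, against -0.48 in activated WT), near the shares of all tested genes. Npm1, nucleophosmin, rose from 611, 609 and 702 to 1138, 1353 and 1205 FPKM (0.94), and Rrp9 fell (-0.83). Cytosolic ribosomal protein genes kept near the whole: 6 of 30 were higher and 5 lower (median -0.01), but 14 and 2 with quantile normalization (median 0.18), and 1 and 0 with knockout library 1 alone. Mitochondrial ribosomal protein genes were higher in 16 of 24 cases and lower in none (median 0.42), or 8 with library 1 alone, as for Mrpl20 (0.85). Of 8 CCT chaperonin genes 4 were higher and none lower (median 0.33), 1 with library 1 alone and 7 without naive library 2.

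Protein breakdown and quality control rose in part. All 26 proteasome subunit genes were called higher (median 0.56, range 0.29 to 1.30, against a median of 0.25 in activated WT), 17 with library 1 alone. Psmb2, a catalytic core subunit, stood at 57.1, 49.1 and 62.4 FPKM in naive and 131, 139 and 148 in knockout libraries (1.30). Of 20 genes of the unfolded protein response, by which the endoplasmic reticulum adjusts its folding capacity, 12 rose and 3 fell, or 1 fell with library 1 alone (median 0.51, against 0.06 in activated WT). Sdf2l1, a cofactor of the chaperone BiP, was at 7.59, 8.38 and 7.82 FPKM in naive, 28.6, 44.4 and 35.5 in knockout and 20.3, 15.0 and 17.1 in activated WT libraries (2.04 against naive). Dnajb9 fell (-0.80), and the sensor gene Atf6 rose (1.77). Cytosolic heat shock genes were lower in 4 of 12 cases and higher in none (median -0.40). Hspa1a fell from 5.54, 33.9 and 11.4 to 0.1001, 0.783 and 0.134 FPKM (-3.44), and Hsf1, the heat shock factor gene, from 31.2, 32.6 and 28.4 to 15.2, 13.6 and 13.7 (-1.06). Redox defence genes rose in 12 of 21 cases, led by thioredoxin Txn1 (2.22), or in 7 with library 1 alone, and the regulator gene Nfe2l2 fell (-0.78). Metallothioneins and zinc transporters rose in 8 of 13 cases and fell in 2. Mt2 was at 0.246, 0.173 and 0.167 FPKM in naive and 14.8, 51.5 and 22.8 in knockout libraries (4.50), while the zinc exporter gene Slc30a1 fell (-1.22). The metal response core TGCACNC stood in 6 of 10 promoters found for that list (60%) and in 14.7% of those of tested genes, on either strand.

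**Figure D3:**
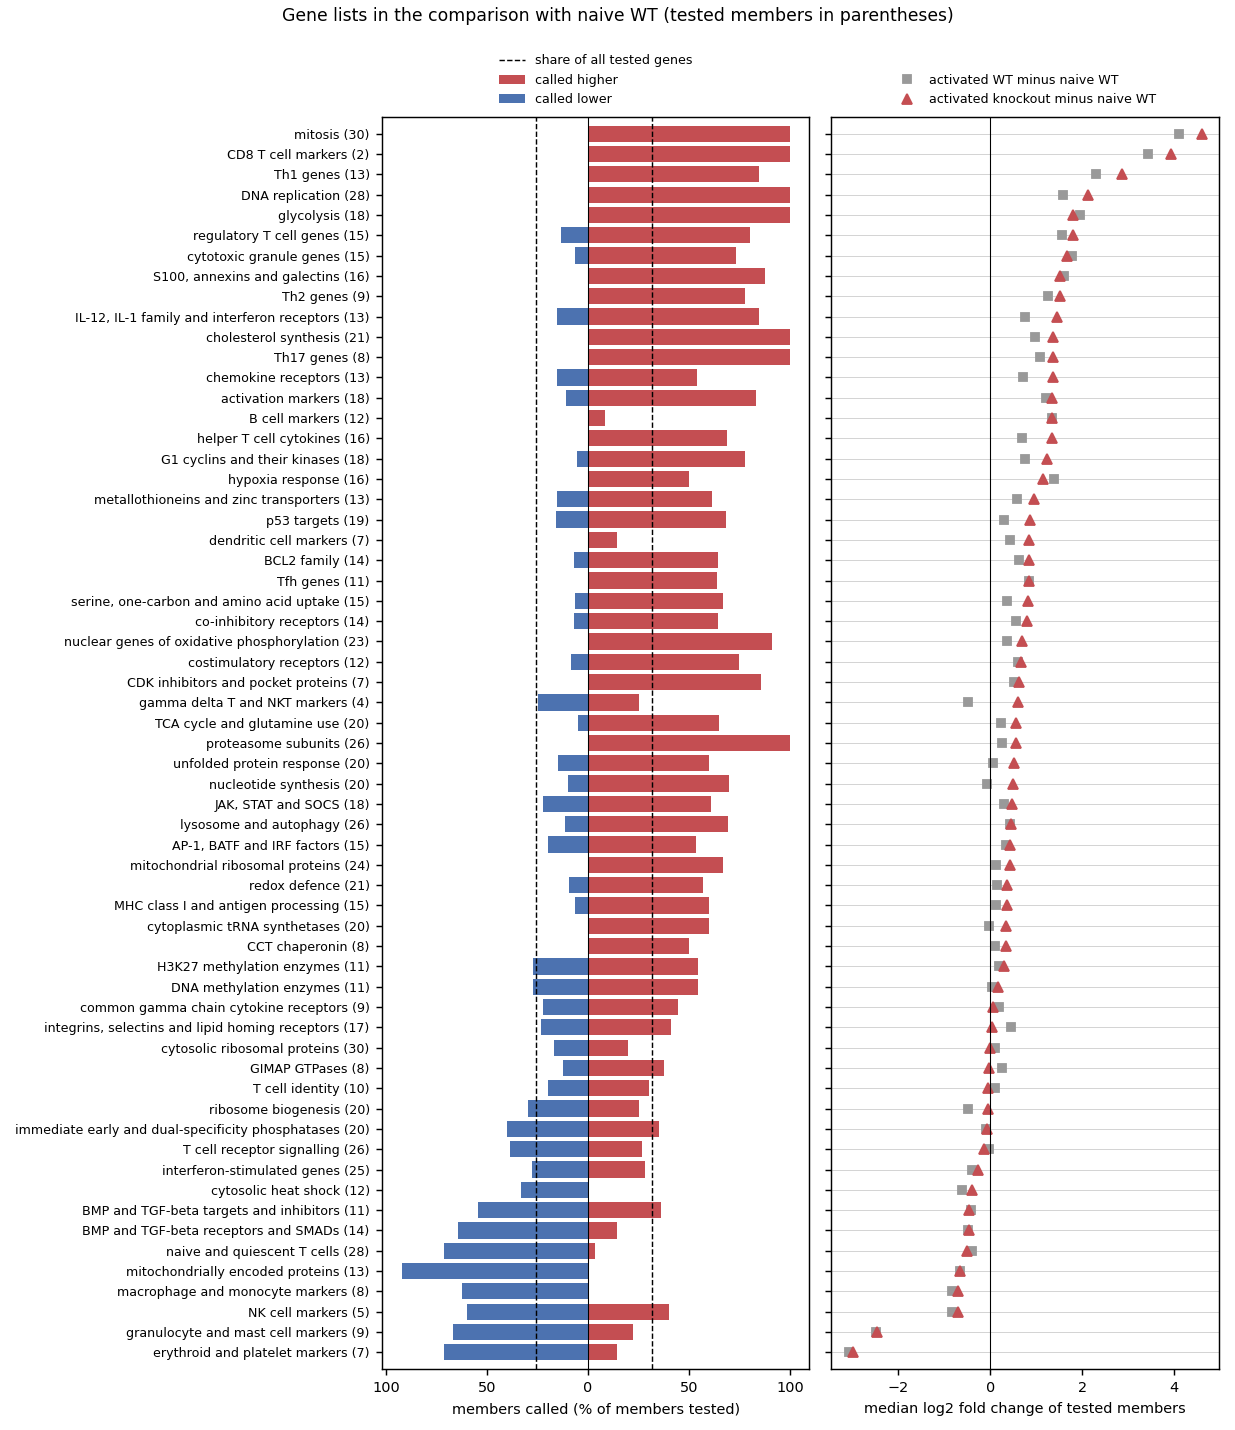
Left, share of each list's tested members called higher (red) or lower (blue) in knockout against naive cells, with dashed lines at the shares of all tested genes (31.9% and 25.6%). Right, median log2 fold change of the members for knockout (red triangles) and activated WT (grey squares), both against the same naive libraries. Mitosis genes sit at 4.60 and 4.10, and mitochondrially encoded genes at -0.67 in both.

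Among genes of the T cell state, 15 of 18 tested activation markers rose and 2 fell (median 1.34). Il2ra, whose product gives the interleukin-2 receptor its high affinity, went from 1.68, 1.79 and 2.05 to 57.7, 173 and 71.7 FPKM (5.0), highest in knockout library 2. The costimulatory receptor genes Tnfrsf9 (3.75) and Tnfrsf4 (3.62) followed. The early markers Cd40lg (-1.30) and Cd69 (-0.73) fell. Costimulatory receptors rose in 9 of 12 cases, with Icos at 2.13, and Tnfrsf25 fell (-0.76). Co-inhibitory receptors rose in 9 of 14 cases and 1, Vsir, fell (-0.64). Ctla4 was at 4.98, 4.75 and 6.39 FPKM in naive and 261, 309 and 257 in knockout libraries (5.44), and Tigit rose too (4.06). Lag3, which binds MHC class II, rose from 2.94, 2.09 and 5.16 to 94.2, 99.1 and 92.4 FPKM (4.51, SE 0.22, limma adjusted p = 4.27e-06), while activated WT libraries were at 182, 187 and 205.

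Genes of naive and quiescent cells fell in 20 of 28 cases and 1 rose (median -0.52), 12 with knockout library 1 alone. Beside Dtx1 and Igfbp4, the interleukin-6 receptor gene Il6ra fell from 87.2, 78.6 and 72.7 to 15.0, 8.33 and 7.67 FPKM (-2.88). The quiescence factor genes Klf2 (-1.23), Klf3 (-1.69) and Foxo1 (-0.81) were lower. Klf2 stood at 150, 141 and 179 FPKM in naive and 95.9, 53.05 and 56.3 in knockout libraries, where library 1 was near activated WT, at 93.4, 103 and 106. Tcf7 and Ccr7 did not pass, and the chromatin organizer gene Satb1 rose (0.78). T cell receptor signalling genes went both ways, 7 higher and 10 lower of 26 (median -0.15), with 3 lower when knockout library 1 stood alone. The brakes Cblb (1.76) and Ptpn22 (1.21) rose, and the diacylglycerol kinase gene Dgka fell from 488, 435 and 478 to 295, 219 and 230 FPKM (-0.92). Of 8 GIMAP GTPase genes, 3 rose and 1 fell. Gimap7 rose from 40.3, 40.2 and 40.6 to 239, 239 and 233 FPKM (2.52), Gimap5 rose (0.73) and Gimap8 fell (-0.87).

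Immediate early genes and dual-specificity phosphatases were divided, 7 higher and 8 lower of 20 (4 and 4 with library 1 alone). Dusp4 rose from 0.566, 0.440 and 0.755 to 22.9, 33.1 and 31.6 FPKM (4.24), and Fos (-2.21) and Ier5 (-1.90) fell. Of 15 AP-1, BATF and IRF factor genes, 8 rose and 3 fell. Irf4, which scales with receptor signal strength, rose from 3.93, 4.06 and 6.85 to 36.5, 51.9 and 46.9 FPKM (2.97), and Batf (1.32) and Batf3 (2.10) rose while Irf3 fell (-1.21).

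Of 9 receptor genes for common gamma chain cytokines, 4 rose and 2 fell (median 0.06, and -0.08 with quantile normalization), near the shares of all tested genes. Il2rb, the beta chain shared by the interleukin-2 and interleukin-15 receptors, rose from 12.8, 15.5 and 18.6 to 300, 322 and 283 FPKM (4.2, SE 0.14, limma adjusted p = 1.3e-06). Il7r, the receptor of the naive survival cytokine, fell from 166, 244 and 160 to 58.8, 79.5 and 64.4 FPKM (-1.46). Receptors of the interleukin-12 and interleukin-1 families and of interferons rose in 11 of 13 cases and fell in 2 (median 1.45, against 0.76 in activated WT). Between knockout and activated WT the median difference of these genes was 0.10, and 1, Il1rl1, was called, higher. Il12rb1 (3.27) and the decoy receptor gene Il1r2 (2.97) rose. Of the interferon-gamma receptor, Ifngr1 rose from 44.6, 66.4 and 41.3 to 294, 238 and 252 FPKM (2.37), and Ifngr2 fell from 23.6, 23.03 and 22.4 to 7.29, 10.6 and 10.95 (-1.20). Of 18 JAK, STAT and SOCS genes, 11 rose and 4 fell, or 1 fell with library 1 alone (median 0.48), with Socs2 (2.78), Stat4 (1.34) and Socs1 (1.1) higher and Socs4 lower (-0.61).

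Genes of several helper lineages rose in the same libraries. Of 13 Th1 genes 11 rose and none fell (median 2.87, against 2.29 in activated WT). Their median difference between knockout and activated WT was 0.27, and 1, Eomes, was called, higher. Tbx21, the Th1 factor T-bet, was at 0.614, 0.876 and 1.34 FPKM in naive and 29.9, 37.5 and 33.6 in knockout libraries (4.17, SE 0.14, limma adjusted p = 1.46e-06), and Cxcr3 rose too (4.43). Of 9 Th2 genes 7 rose (median 1.51), with Ccr8 (2.58), Ccr4 (2.26) and Gfi1 (2.02), while the lineage factor gene Gata3 was at 14.8, 14.6 and 14.6 FPKM in naive and 19.4, 13.6 and 15.7 in knockout libraries (limma adjusted p = 0.448). All 8 tested Th17 genes rose (median 1.37), 5 with a filter at 2 FPKM, including the chemokine receptor gene Ccr6 (2.24). Of 11 follicular helper genes 7 rose (median 0.84), among them Cd200 (1.68), Pdcd1 (1.21) and Bcl6 (0.53). Below the filter were Hlx (Th1), Il4, Il5 and Ptgdr2 (Th2), Il22, Il23r, Il1r1 and Il17re (Th17) and Ascl2 (follicular helper). A gene near 0 in naive cells passed the filter only through its knockout values, which tilts the counts of these lists towards rises.

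Helper cytokine transcripts rose in 11 of 16 cases and fell in none (median 1.33, against 0.69 in activated WT), 7 with a filter at 2 FPKM. Il3, Il4, Il5 and Il22 were below the filter, and genes such as Il17a passed it only through the knockout libraries. Their median difference between knockout and activated WT was 0.64, and 1, Tgfb1, was called, higher. Il17a was listed at 0, 0.532 and 0 FPKM in naive cells and 33.5, 12.49 and 2.87 in knockout libraries, highest in library 1 and lowest in library 3. Ifng was at 0.0610, 0.193 and 0.374 FPKM in naive and 4.64, 34.4 and 6.64 in knockout libraries. Their log2 fold changes were 3.40 (SE 0.70, limma adjusted p = 0.00395) and 3.26 (SE 0.63, limma adjusted p = 0.00276). Xcl1 (3.16) and Il17f (2.49) rose as well. Activated WT libraries were at 3.30, 1.26 and 3.27 FPKM for Il17a and 3.94, 2.26 and 1.49 for Ifng. Neither Il17a nor Ifng was called against activated WT (limma adjusted p = 0.16 and 0.136). Il2 stayed low, at 0.649, 0.633 and 0.846 FPKM in naive and 1.25, 0.934 and 2.25 in knockout libraries (limma adjusted p = 0.0513).

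The regulatory T cell list had 15 tested members, of which 12 were called higher and 2 lower (median 1.79). Ctla4, Il2ra and Tigit led the rises, genes that activated effector cells share, and Nt5e (-2.30) and Gpr83 (-1.46) fell. The other rises were Tnfrsf9, Itgae, Entpd1, Ikzf2, Tnfrsf18, Capg, Lrrc32, Ikzf4 and Nrp1. Foxp3, the gene by whose reporter both gates are negative, read 2.79, 2.73 and 2.43 FPKM in naive and 5.89, 2.21 and 4.31 in knockout libraries, which overlap (log2 fold change 0.43, limma adjusted p = 0.168). Foxp3 passed with library 1 alone (0.92, limma adjusted p = 0.00389) and without library 2 (0.73, limma adjusted p = 0.00364). Activated WT libraries read 1.02, 0.989 and 0.867. Foxp3 was called above activated WT with no overlap (log2 difference 1.32, limma adjusted p = 0.0341). Foxp3 and Ikzf2 were the 2 members of the list called above activated WT, a count of 1 with median-of-ratios scaling or quantile normalization.

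Cytotoxic granule genes rose in 11 of 15 cases (median 1.66). Beside Gzmb and Ctla2a, Ctla2b went from 0.413, 0.624 and 0.474 to 40.8, 62.8 and 59.4 FPKM (5.18). Prf1, perforin, the pore-forming partner of the granzymes, fell from 15.6, 18.2 and 14.0 to 4.31, 5.13 and 2.65 FPKM (-1.77, limma adjusted p = 0.000142). Trafficking genes were read next. Chemokine receptors rose in 7 of 13 cases and fell in 2 (median 1.36), with Cxcr3 and Cxcr6 (3.27), receptors for inflamed tissue, ahead. Integrins, selectins and lipid homing receptors rose in 7 and fell in 4 of 17 cases (median 0.03, -0.01 with median-of-ratios scaling and -0.14 with quantile normalization). These counts are near the shares of all tested genes. Itgae, which binds E-cadherin, rose (2.61), and the oxysterol receptor gene Gpr183 (-1.52), Itga6 (-1.40) and the lymph node exit receptor gene S1pr1 (-0.91) fell. S100, annexin and galectin genes rose in 14 of 16 cases (median 1.52). Lgals1, galectin-1, went from 48.5, 53.4 and 65.9 to 786, 985 and 811 FPKM (3.92), and S100a6 (4.36) and Anxa2 (3.99) rose.

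Of 25 interferon-stimulated genes 7 were higher and 7 lower, or 4 lower with library 1 alone (median -0.27), near the shares of all tested genes (31.9% and 25.6%). Gbp2 (2.93) and Gbp3 (2.39), guanylate-binding proteins induced by interferon-gamma, rose, and Oas2 fell from 16.3, 29.8 and 11.9 to 1.61, 1.72 and 2.50 FPKM (-2.70). The other falls were Oasl1, Oasl2, Ifit1, Ifit2, Ifit3 and Ddx58, genes of the type I interferon response. MHC class I and antigen processing genes rose in 9 of 15 cases, 5 with library 1 alone, with the immunoproteasome genes Psmb9 (0.92) and Psmb8 (0.79). H2-K1 fell from 2195, 2188 and 2493 to 1381, 913 and 999 FPKM (-1.08), in the region where the knockout libraries differ among themselves.

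The BMP and TGF-beta pathway was lower at the level of receptors and SMADs. Of 14 tested genes 9 fell and 2 rose (median -0.46, against -0.49 in activated WT). The activin receptor gene Acvr1b fell from 19.2, 16.6 and 17.5 to 5.32, 4.87 and 4.61 FPKM (-1.66, SE 0.09, limma adjusted p = 5.25e-06). Acvrl1, another type I receptor for BMPs, read 16.5, 13.4 and 11.9 FPKM in naive and 4.58, 9.78 and 3.68 in knockout libraries (-1.18, limma adjusted p = 0.0294, lost in 6 of 18 alternatives). Smad5 (-0.99), the shared partner Smad4 (-0.70), Tgfbr2 (-0.77), Tgfbr1 (-0.59) and Smad1 (-0.33) fell. The type II receptor gene Bmpr2, at 1.34, 1.42 and 0.800 FPKM in naive and 0.691, 0.917 and 0.687 in knockout libraries, did not pass (limma adjusted p = 0.0938). Smad2 and Smad3 did not pass either. The rises were Bmpr1a itself and the co-receptor gene Eng (1.59).

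Of 11 tested targets and inhibitors of the pathway, 6 fell and 4 rose (median -0.46). Id1, Smad6, Bambi, Grem1 and Ltbp3 of the same list were below the filter and not tested. Smad7, the inhibitory SMAD, fell from 51.5, 43.8 and 46.5 to 13.7, 12.0 and 12.9 FPKM (-1.80, SE 0.10, limma adjusted p = 7.61e-06), and activated WT libraries were at 16.4, 18.2 and 20.9. The corepressor genes Ski (-1.43) and Skil (-0.68) and the ubiquitin ligase genes Smurf1 and Smurf2 also fell. Runx2 rose from 0.338, 0.350 and 0.545 to 8.48, 10.4 and 9.63 FPKM (2.90), and Furin, which cleaves TGF-beta family precursors, from 11.5, 10.3 and 10.7 to 36.5, 53.7 and 35.3 (1.83). Of the BMP target genes of the inhibitor of DNA binding family, Id2 rose (1.06) and Id3 read 31.5, 29.2 and 36.8 FPKM in naive and 32.4, 19.2 and 33.0 in knockout libraries (limma adjusted p = 0.445). Tgfb1, the ligand gene, rose slightly, from 49.1, 50.5 and 54.0 to 64.0, 67.7 and 70.2 FPKM (0.39).

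Chromatin enzymes followed the division genes in part. Of 11 genes of H3K27 methylation 6 rose and 3 fell, or 3 and 1 with library 1 alone. Ezh2, the Polycomb methyltransferase, went from 13.7, 13.5 and 12.52 to 82.9, 99.8 and 102 FPKM (2.75), its cofactor gene Phf19 rose (2.43), and the demethylase gene Kdm6b fell (-1.68). Of 11 DNA methylation genes 6 rose and 3 fell (median 0.16, -0.03 with quantile normalization). Dnmt1, the maintenance enzyme, rose (1.22), and the dioxygenase gene Tet3 fell (-1.31).

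Most tested p53 target, BCL2 family and lysosome genes rose. Of 19 tested p53 targets 13 were higher and 3 lower (median 0.86, against 0.29 in activated WT). Cdkn1a, the cell cycle inhibitor p21, was at 0.127, 0.410 and 0.353 FPKM in naive, 18.4, 31.2 and 29.5 in knockout and 6.67, 8.31 and 3.54 in activated WT libraries. It was above naive by 4.37 (SE 0.29, limma adjusted p = 1.62e-05). Phlda3 (2.74) and the pro-apoptotic gene Pmaip1 (2.46) were next. Mdm2, Bbc3 and Aen did not pass. Sesn1 was lower by 0.56 on the log2 scale, a call lost in 6 of 18 alternatives. The count of 3 lower fell to 0 with library 1 alone and to 1 without naive library 2 or 3 or without knockout library 3. Of 14 BCL2 family genes 9 rose and 1 fell. The protector gene Bcl2l1 rose from 8.26, 6.12 and 7.14 to 23.2, 27.03 and 24.1 FPKM (1.66), and the effector gene Bak1 from 21.99, 22.9 and 20.6 to 63.1, 66.9 and 63.5 (1.52). Bcl2 and Mcl1 did not pass. Lysosome and autophagy genes rose in 18 of 26 cases and fell in 3, or in 0 with library 1 alone (median 0.44), with Gabarapl1 from 1.41, 1.52 and 1.42 to 18.9, 23.1 and 22.4 FPKM (3.19).

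How far the knockout response differed from that of WT cells was read against activated WT libraries, which had the same culture. These values share the knockout libraries with the comparison above. limma called 648 of 15092 genes between knockout and activated WT (4.29%), 519 higher (3.44%) and 129 lower (0.855%), and 535 of the 648 were also called against naive cells. This count depended on single libraries. It was 269, 57 and 205 without activated WT libraries 1, 2 and 3, 1087, 100 and 69 without knockout libraries 1, 2 and 3, 144 without naive library 1, and 80 with knockout library 1 alone. The share of higher calls also moved with scaling, from 80.1% as deposited to 56.2% with median-of-ratios scaling and 50.6% with quantile normalization.

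Several lists held more such calls than the background of 3.44% higher, and scaling lowered most of these counts. Calls over all tested genes fell as well, from 648 to 329 with median-of-ratios scaling and 344 with quantile normalization. The scaled list counts are therefore not to be read against 3.44%. List counts against activated WT were not followed with knockout library 1 alone. Of 19 p53 targets, 9 were above activated WT, namely Cdkn1a, Bax, Ccng1, Sesn2, Phlda3, Zmat3, Plk2, Ei24 and Tnfrsf10b, with 8 under median-of-ratios scaling and 7 under quantile normalization. Bax, a pore-forming death effector, read 110, 112 and 128 FPKM in knockout, 63.2, 64.0 and 72.6 in activated WT and 51.5, 48.9 and 63.7 in naive libraries. The proteasome list held 10 of 26, then 2 and 1 under the same scalings, and nucleotide synthesis 8 of 20, then 0 and 0. Cholesterol synthesis held 7 of 21 (3 and 2), oxidative phosphorylation 7 of 23 (3 and 3), the unfolded protein response 6 of 20 (3 and 4) and the tRNA synthetases 6 of 20 (0 and 0).

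Beyond both other groups lay 401 genes that were higher (2.66%) and 89 that were lower (0.59%) in knockout cells. These counts were 69 and 4 with knockout library 1 alone, and 42 to 642 and 11 to 184 when single libraries were left out. The gene that stood out most was Mid1, an E3 ubiquitin ligase gene at chrX:169685199-170005736. It read 94.5, 62.5 and 115 FPKM in knockout, 8.50, 6.66 and 7.001 in naive and 4.68, 6.56 and 6.197 in activated WT libraries (log2 fold change 3.41 against naive, limma adjusted p = 1.43e-05, and 3.72 against activated WT, limma adjusted p = 0.000337). Its near-identical copy Mid1-ps1 moved with it, so reads of the pair cannot be assigned with certainty. H60b, a ligand of the receptor NKG2D, was at 5.58, 4.77 and 5.48 FPKM in knockout libraries and under 0.4 in all 6 others (2.50 and 2.40). Wls, the Wnt secretion factor, was at 19.6, 18.2 and 19.8 FPKM in knockout, 3.75, 2.45 and 3.61 in naive and 3.00, 2.79 and 3.84 in activated WT libraries (2.26 and 2.27). AA465934 (1.76 and 2.08), Cdkn1a (4.37 and 1.96), the enkephalin precursor gene Penk (2.33 and 1.68), Phlda3 (2.74 and 1.64) and the acid phosphatase gene Acpp (1.54 and 1.56) completed the first 8. Of these, Acpp, Penk and Cdkn1a lost the call against activated WT in 14, 8 and 5 of 18 alternatives.

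On the lower side Ccdc22, a component of the endosomal sorting complex CCC, read 18.6, 16.02 and 19.0 FPKM in knockout, 120, 102 and 154 in naive and 106, 107 and 71.7 in activated WT libraries (log2 fold change -2.73 against naive, limma adjusted p = 2.18e-05, and -2.33 against activated WT, limma adjusted p = 0.00181). Ppp1r3f was lower too, at 2.44, 2.25 and 2.17 FPKM against 25.1, 16.1 and 27.9 in naive and 6.00, 6.57 and 5.39 in activated WT libraries (-2.84 and -1.09). These 2 genes flank Foxp3, the gene the reporter is named after, on the opposite strand: Ppp1r3f at chrX:7557296-7574283 and Ccdc22 at chrX:7593809-7605517 overlap the ends of Foxp3 at chrX:7573644-7595245. Without the strand setting, reads there cannot be told apart, and the part of the reporter was not tested. Rab6b, a vesicle GTPase gene, was at 0.0110, 0.0979 and 0 FPKM in knockout, 10.6, 10.4 and 9.97 in naive and 2.73, 4.24 and 3.19 in activated WT libraries. The alpha-fetoprotein gene Afp (-2.77 and -1.33), Slc26a11 (-2.15 and -1.43), the acetate-activating enzyme gene Acss2 (-1.66 and -0.83), Rell1 (-0.95 and -0.86) and Slco1a6 (-0.86 and -1.58) were the others. The call against activated WT was lost in 9 of 18 alternatives for Acss2, 8 for Ppp1r3f, 6 for Rell1, 5 for Slco1a6, 3 for Afp, 2 for Slc26a11 and 1 for Ccdc22.

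**Figure D4:**
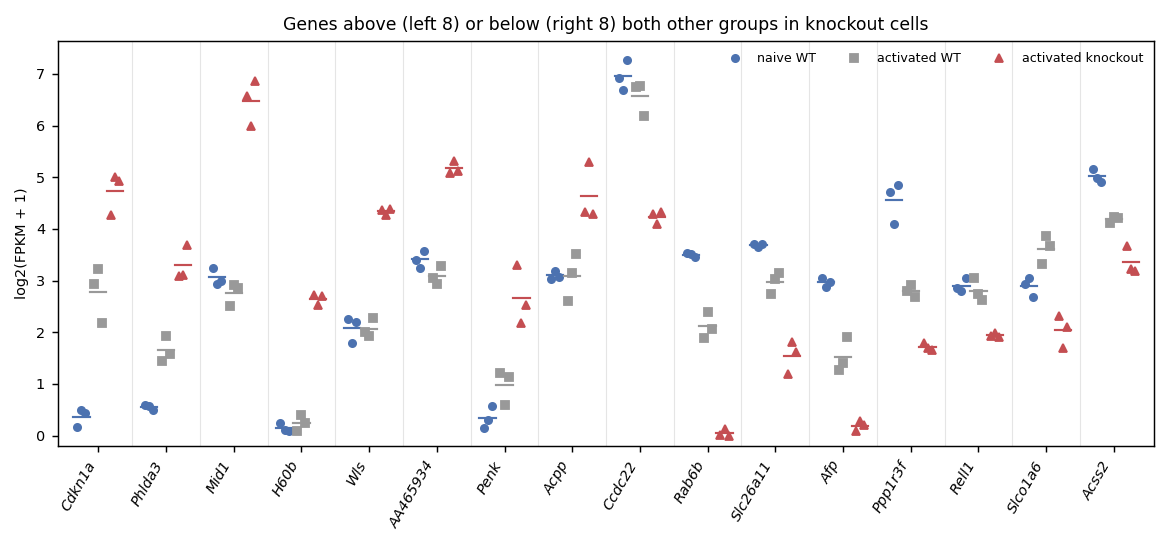
Per-library log2(FPKM + 1) of the 16 genes named as above (left) or below (right) both other groups in knockout cells. Each point is 1 library and short lines are group means. Mid1, H60b and Wls have naive and activated WT libraries at like levels with knockout libraries far above, while Ccdc22 sits about as high in both WT groups and lower in the knockout.

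The 3 knockout libraries also differed among themselves at genes chosen here after their values were seen, so they are described with no test. At the MHC on chromosome 17, knockout library 1 read close to the activated WT libraries and libraries 2 and 3 did not. H2-Q10 (chr17:35470089-35474563) was at 19.8, 147 and 184 FPKM, against 20.9 to 25.4 in activated WT. H2-Q2 was at 12.9, 139 and 139 FPKM and Msh5, a meiotic mismatch repair gene, at 2.14, 35.2 and 43.7. H2-Ea-ps, the class II alpha gene that C57BL/6 mice carry as an unexpressed copy, was listed at 0.142, 107 and 176 FPKM and at no more than 0.310 in any WT library. H2-Q7 went the other way, at 300, 136 and 142 FPKM. On chromosome 1, the interferon-inducible gene Ifi213 was at 54.8, 23.2 and 6.65 FPKM and its neighbour Ifi208 at 23.5, 10.6 and 4.46. On chromosome 6, Gpnmb was at 0.194, 8.39 and 10.6 FPKM, where activated WT libraries were at 10.9 to 14.0. Near-identical MHC genes share reads, and whether the mice behind these libraries differ in strain was not tested.

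A second set followed knockout library 2. Gzmb (205, 1054 and 262 FPKM), Ifng, Il2ra, the signalling inhibitor gene Cish (6.54, 24.95 and 9.40) and the lymphotoxin gene Lta (6.35, 26.4 and 7.20) were highest there. The hypoxia-responsive gene Bnip3 (20.6, 51.0 and 13.7 FPKM) and the metallothionein gene Mt2 were also highest in library 2. Both varied more among activated WT libraries, at 73.5, 58.7 and 14.2 FPKM for Bnip3 and 54.8, 75.0 and 14.6 for Mt2. Their log2 ranges were 2.3 and 2.28 in activated WT, against 1.82 and 1.73 in knockout libraries. Il17a and Il17f, the latter at 10.4, 6.39 and 1.59 FPKM, were highest in knockout library 1. The median range of a gene over the 3 knockout libraries was 0.22 on the log2 scale, beside 0.27 in naive and 0.23 in activated WT libraries.

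**Figure D5:**
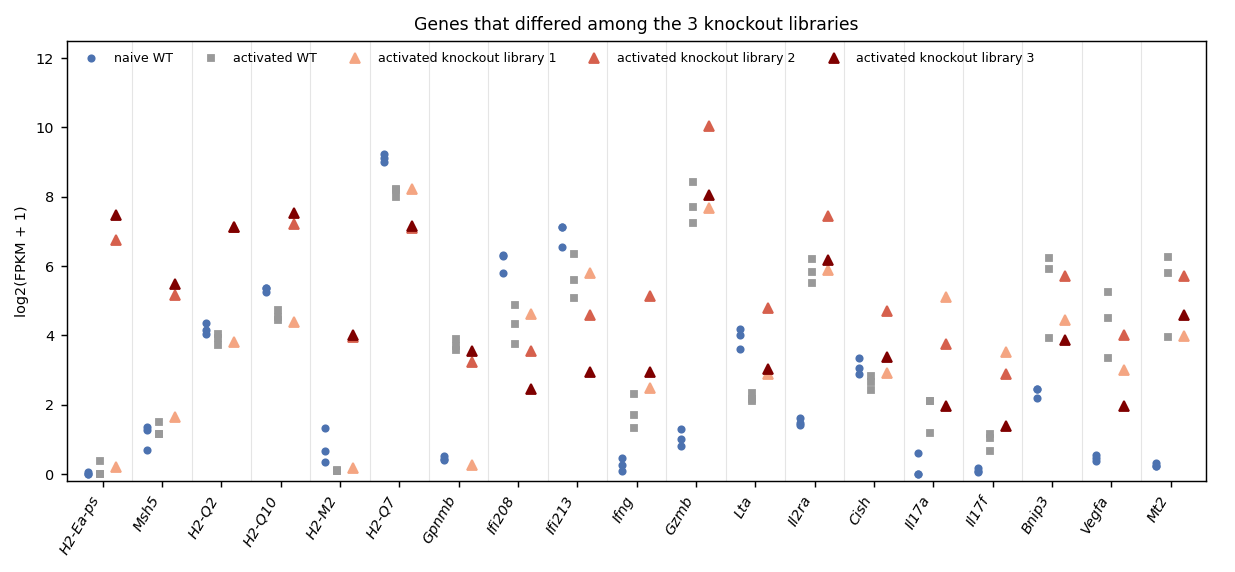
Per-library log2(FPKM + 1) of 19 genes chosen for their differences among the 3 knockout libraries, shown as triangles shaded from library 1 (light) to library 3 (dark) beside naive and activated WT libraries. Msh5, H2-Q2, H2-Q10, H2-M2 and H2-Ea-ps are high in libraries 2 and 3 and near the WT level in library 1, and Gzmb, Ifng, Lta, Il2ra and Cish are highest in library 2.

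Markers of other cells moved with the comparison, and their part in the gene groups above was not tested. Both CD8 T cell markers, Cd8a and Cd8b1, were called higher, and their sum was 9.48 to 41.4 FPKM in naive, 220 to 279 in knockout and 147 to 230 in activated WT libraries. This stands beside the cytotoxic, Th1 and NK receptor genes. NK cell markers summed to 29.7 to 68.2 FPKM in naive and 162 to 216 in knockout libraries, with 2 of 5 tested members called higher and 3 lower, or 1 lower with knockout library 1 alone. The sum rested on Klrd1 (21.8 ± 5.39 FPKM in naive and 142 ± 30.8 in knockout libraries, SD, n = 3) and Klrk1 (2.40 ± 0.354 and 51.4 ± 1.23), which activated T cells also express, while Tyrobp, Klra8 and Klrb1c fell. The natural cytotoxicity receptor gene Ncr1 was too low to be tested, and 5 of the 9 members in the table were under 1 FPKM in all knockout libraries.

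B cell markers summed to 71.4, 4.19 and 230.5 FPKM in naive libraries 1 to 3 and to 215, 151 and 223 in knockout libraries. Ebf1 alone of 12 members was called, higher, and naive library 2 had by far the lowest sum. Of 171 immunoglobulin variable segments 29 were called higher (17%, below the 31.9% of all tested genes) and none lower. Dendritic cell markers, mostly MHC class II genes that B cells share, summed to 235 to 1093 FPKM in naive and 576 to 854 in knockout libraries, with 1 of 7 tested called higher, Ccl22.

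Macrophage and monocyte markers summed to 150 to 337 FPKM in naive and 83.8 to 115 in knockout libraries, with 5 of 8 tested lower, a count of 1 with knockout library 1 alone and 3 without knockout library 1 or 2. Granulocyte and mast cell markers summed to 60.04, 711 and 116 FPKM in naive and to 3.06, 7.13 and 9.74 in knockout libraries, with 6 of 9 lower (3 with knockout library 1 alone), and the basophil and mast cell genes Mcpt8 (1.34) and Cpa3 (1.24) higher. Erythroid and platelet markers summed to 66.2 to 85.9 FPKM in naive and 6.64 to 13.9 in knockout libraries, with 5 of 7 lower and Hemgn higher (2.89). Gamma delta T and NKT cell markers summed to 31.1 to 43.1 and 22.5 to 33.5 FPKM, with 1 of 4 called in each direction. The exact permutation test over libraries, whose smallest possible p for 3 against 3 is 0.1, gave two-sided p = 0.1 for the CD8, NK, macrophage, granulocyte and erythroid sums, 0.4 for B cells, 0.6 for dendritic cells and 0.3 for gamma delta T and NKT cells. The 5 sums at 0.1 did not overlap between the groups.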

How the data were processed

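The authors deposited 1 table of FPKM values for 25759 gene rows in 9 libraries. Per the submitters' processing notes, TopHat2, Cufflinks, Cuffdiff and GRCm38 were used. For versions, filters and the strand setting, nothing is stated in the labels or notes. FPKM values hold no counts, so a count model was not used and depth is unknown. Symbols, found for 24876 identifiers, and positions came from GENCODE release M21.

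Values entered as log2(FPKM + 1), and a fold change on this scale understates the change of low genes. Genes with a mean of 0.5 FPKM over the 6 libraries compared were tested with limma 3.58.1 (R 4.3.3, trended variance) in 1 fit of 3 groups over 9 libraries, with Benjamini-Hochberg adjustment over all 15092 genes and a threshold of 0.05. The fit was tested on simulated data.

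Named genes are the targeted and sort genes, the 12 largest rises and falls at 5 FPKM or more with no overlap, up to 3 per list with 3 or more calls plus 1 against the majority, and up to 8 genes above or below both other groups. Others, including those that vary among knockout libraries, were chosen after their values were seen. Members and lists were chosen with earlier results of these data known. Alternatives changed the pseudocount (0.1), filter (none or 2 FPKM), scaling, weights, libraries and a replicate term. Using knockout library 1 alone was chosen after seeing the data. Replicate numbers were not treated as pairs. A few genes of the lists are not reported by name here.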

Additional observations from a re-analysis of the deposited data

Results flagged for a closer look

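At 18 genes the knockout and the activated WT cells were called in opposite directions against the same naive libraries, and the difference between knockout and activated WT was itself called by limma. The 13 with an established gene name and a mean of 5 FPKM or more in 1 group are given here as log2 differences, knockout minus activated WT. Lower in the knockout were Slco1a6 (-1.58), Tmem254c (-1.41), Tmem254a (-1.4), Tmem254b (-1.37), Sh3bp5 (-1.29), Trib2 (-1.02), Adcy6 (-0.63), Ngly1 (-0.61) and Rpl15 (-0.49). Higher in the knockout were Trap1 (0.3), Rabggtb (0.63), Cdk5rap1 (0.85) and Dglucy (1.63).

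Sh3bp5, an adaptor that binds BTK, read 31.4, 31.3 and 29.4 FPKM in naive, 39.5, 50.4 and 48.0 in activated WT and 20.03, 17.2 and 17.2 in knockout libraries, with no overlap between groups. Rpl15, a ribosomal protein gene, read 510, 493 and 573 FPKM in naive, 661, 563 and 652 in activated WT and 447, 441 and 445 in knockout libraries. Tmem254a, Tmem254b and Tmem254c are near-identical copies whose reads cannot be assigned with certainty, so they are not 3 separate results. Ngly1, Rpl15, the Tmem254 copies and Sh3bp5 all lie on chromosome 14, as does Bmpr1a. Of the 18 genes, 4930480K23Rik and Trav4d-2 lie there too. Mcoln3, Rabggtb and St6galnac3 lie on chromosome 3 between 140 and 160 Mb. Chromosome 14 held 626 of the 15092 tested genes. At its 30 to 40 Mb, around Bmpr1a, 11.1% of 45 tested genes lay beyond both other groups. At 150 to 160 Mb of chromosome 3 the share was 20.8% of 24. The part of position in these differences was not tested.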

How the results depend on the processing

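Genes called between knockout and naive cells numbered 7475 to 8605 when single libraries were left out and 7449 to 10369 under the other settings tried on all 9 libraries or on the 6 compared, against 8668. With knockout library 1 alone, an alternative chosen after seeing the data in which the lone library is assumed to vary like the other groups, the counts were 5216 called, 3183 higher, 2033 lower, 80 against activated WT, 69 above both groups and 4 below both. Genes lower by at least 2-fold were 1194 with a pseudocount of 0.1, against 777. Calls against activated WT, those above both groups and those below both were less stable. They numbered 3936, 1953 and 620 with array weights, and 92, 59 and 15 with only the libraries compared. Median-of-ratios scaling gave 329 and 156 for the first 2 of these, and quantile normalization 344 and 144. Without a filter the calls against activated WT were 429 and those below both 52. Leaving out single libraries gave 57 to 1087, 42 to 642 and 11 to 184. With replicate number as a block, the counts were 63, 44 and 14, and 8308 against naive cells. The numbers were not taken to pair the libraries, because deviations of same-numbered libraries correlated at 0.002 to 0.058, below the 0.1 asked of every pair. They were all positive, beside -0.068 to 0.038 for other numbers, and a library was closest to its own number in 12 of 18 checks, which is a hint of pairing from the data and not from the design.

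Cd4, which was not called, changed sign. It was 0.181 with library 1 alone and ranged from -0.133 to 0.032 without single libraries. Of 193 named genes called against naive cells, 177 stayed called in every alternative that tested them, and of 16 called against activated WT, 5 did. Of 71 list counts, 43 stayed within 1.5 times. The cause was not tested. Depth is unknown, so no limit from counting can be given for genes listed at 0.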

Other observations

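Among genes above both other groups, Odc1 and Fabp5 are named here after their values were seen. Odc1, ornithine decarboxylase, the entry enzyme of polyamine synthesis, read 19.9, 14.6 and 17.7 FPKM in naive, 60.6, 53.2 and 65.4 in activated WT and 150, 119 and 159.5 in knockout libraries. Its log2 fold change was 2.96 against naive (limma adjusted p = 4.58e-06) and 1.24 against activated WT (limma adjusted p = 0.0102). Fabp5, a fatty acid binding protein, read 4.28, 3.72 and 5.03 FPKM in naive, 19.4, 15.2 and 12.9 in activated WT and 28.1, 41.4 and 35.1 in knockout libraries. The 3 groups did not overlap in either gene.

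Classes of RNA differed in the direction of their calls. Of 298 tested microRNA genes, 7 were called higher (2.35%) and 48 lower (16.1%) in knockout against naive cells. Other short RNAs leaned the same way, with 0 higher and 23 lower (27.1%) of 85 small nuclear RNA genes. Of 180 small nucleolar RNA genes, 4 were higher (2.22%) and 21 lower (11.7%). The highest row held 5.17% to 25.84% of summed FPKM in naive and 28.7% to 42.57% in knockout libraries. The part of length scaling and of this row in these short classes was not tested. Of 126 T cell receptor variable segments, 19 were higher (15.1%) and 45 lower (35.7%). The shares of all tested genes were 31.9% higher and 25.6% lower. The nuclear RNA Malat1 fell from 171, 174 and 152 to 37.2, 34.7 and 29.2 FPKM (log2 fold change -2.27), while its neighbour Neat1 read 110, 89.9 and 127 FPKM in naive and 106, 96.2 and 127 in knockout libraries.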
